A study of Mus musculus with 8 samples.

Results

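Transcripts of 7 genes of urea synthesis and ammonia handling were compared between the livers of saline-injected, endotoxemic and LGK974-treated mice. The genes come from a named list of 8, of which 7 are described here. *Nags*, *Cps1*, *Otc*, *Ass1* and *Asl* encode enzymes of urea synthesis, and *Glud1* and *Gls2* encode enzymes that free ammonia from glutamate and glutamine. The deposited table holds 23282 rows named by gene symbol, and 1 row was found for each of the 8 genes. The 7 genes described all passed the filter on low counts, which left 12701 genes to test.

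All mice were of the C57BL/6 strain, 4 weeks old and labelled male. The control group received saline *i.p.*, and the endotoxemic group received 25 mg/kg LPS, the endotoxin of gram-negative bacteria, by the same route. By the study's text the LGK974 group received LGK974 at 60 mg/kg together with the same dose of LPS, whereas its labels name LGK974 alone, without a dose and without LPS. LGK974 blocks porcupine, the enzyme that adds the lipid Wnt proteins need for secretion. The study's text gives 6 h after LPS as the time of tissue collection and 2 h before LPS as the time of LGK974 injection for most of its experiments. By that text none of these groups received LGK974 without LPS.

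Urea synthesis starts in the mitochondria of hepatocytes, where NAGS makes N-acetylglutamate, the activator that CPS1 needs to join ammonia and bicarbonate into carbamoyl phosphate. OTC transfers the carbamoyl group to ornithine, and the citrulline formed is carried to the cytosol, where ASS1 and ASL form arginine, from which urea is split off and ornithine given back. The pathway is strongest in hepatocytes near the portal vein, and hepatocytes around the central vein take up the ammonia that is left and bind it in glutamine.

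Sequencing read transcripts from their 3′ ends, and a longer transcript does not by that yield more reads. Endotoxemic libraries 3 and 4 held the same counts as libraries 1 and 2 (0 rows differed in either pair, against 14698 rows between libraries 1 and 2), and each pair was counted as 1 sample. This left 2 libraries in each group, with total counts of 9142116 to 15222439. The labels do not say that the libraries of a group came from separate mice, so the p-values measure the spread between these libraries, which may be technical. Of 23059 rows whose symbol has a single RefSeq position, 526 stood more than 2 Mb from the place that the order of the rows gives them, and *Ass1* was the only member among them. The 5 hepatocyte markers on rows in genomic order summed to 66860 to 114600 CPM (counts scaled to a common library total with TMM factors) in every library, and the 4 T cell markers summed to 0.338 to 3.16 CPM. *Xist*, which is transcribed from the inactive X chromosome, had 1171 to 3115 counts after saline or LPS, and 3 and 7 counts after LGK974 and LPS. The Y-linked *Ddx3y* had 0 counts in all 4 of the former libraries and 1755 and 1392 counts in the latter, although all mice are labelled male. The LGK974 treatment and this sex-linked difference cannot be told apart in any comparison with the LGK974 group.

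The first comparison asked how urea cycle and glutamine genes change in endotoxemia. Of the 7 genes, 5 fell in the endotoxemic group relative to the control group (*Cps1*, *Otc*, *Asl*, *Glud1* and *Gls2*), *Ass1* was higher on the row that carries its symbol, and *Nags* did not pass the test. The falls ranged from 1.18 on the log2 scale for *Otc* to 2.57 for *Gls2*. The endotoxemic means of these 5 genes were 16.9% to 44% of the control means. Among all 12701 genes, 43.4% passed the same test at an adjusted p below 0.05 (23% lower and 20.4% higher), and the median log2 fold change was 0.01. In whole-liver RNA, fewer cells of a type and less RNA per cell cannot be told apart.

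**Figure D1:**
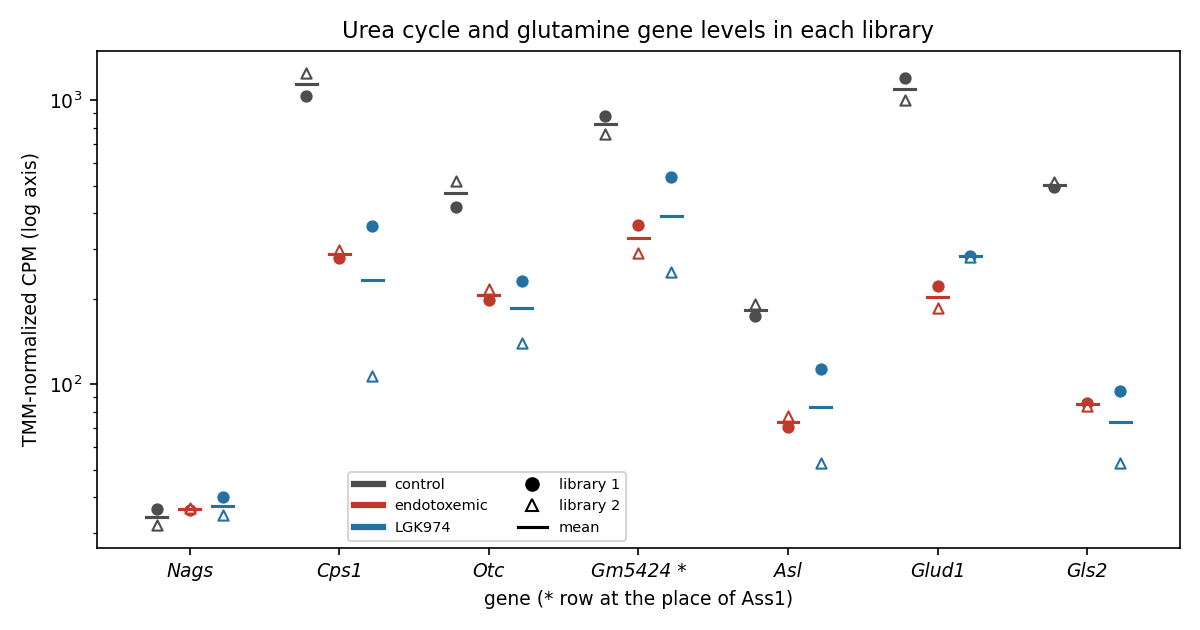
TMM-normalized CPM (log axis) of 6 members and of the *Gm5424* row at the place of *Ass1* in each of the 6 distinct libraries, with points for libraries and bars for group means (n = 2). The control libraries of *Cps1*, *Otc*, *Gm5424*, *Asl*, *Glud1* and *Gls2* lie above all endotoxemic and LGK974 libraries, and those of *Nags* do not. The share of all tested genes separated in this way was not counted. The *Gm5424* row stood out of genomic order, so its control counts and its other counts may come from different genes.

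*Nags* (ENSMUSG00000048217.11, GRCm38 chr11:102145513-102149477, plus strand) was the least abundant of the members on rows in genomic order. Its level was 36.5 and 31.9 CPM after saline, 36.0 and 36.6 CPM after LPS, and 39.9 and 34.7 CPM after LGK974 and LPS. The 3 groups overlapped, and the reads behind these values numbered 330 to 529 per library. The log2 fold change between the endotoxemic and control groups was 0.09 (SE 0.20, 95% interval −0.36 to 0.54, adjusted p = 0.75 in the edgeR test). Relative to the endotoxemic group the LGK974 group differed by 0.04 (95% interval −0.41 to 0.49, adjusted p = 0.931 in the edgeR test).

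*Cps1* (ENSMUSG00000025991.8, chr1:67123026-67231259, plus strand), whose product carries out the rate-limiting step of the cycle, had 11162 and 18990 counts after saline, 2558 and 2782 counts after LPS, and 4774 and 1575 counts after LGK974 and LPS. Normalized, the level was 1036 and 1241 CPM after saline, 279 and 296.5 CPM after LPS, and 360.4 and 107 CPM after LGK974 and LPS. Both control libraries lay above all others, and the LGK974 libraries lay on either side of the endotoxemic ones. *Cps1* fell by 1.98 on the log2 scale in the endotoxemic group (SE 0.46, 95% interval −3.02 to −0.95, adjusted p = 0.00725 in the edgeR test), to 25.3% of the control mean. Under the 19 alternatives run for it, its log2 fold change lay between −2.11 and −1.84. It missed the threshold in 2 of them, those without endotoxemic library 1 or 2. With only the 2 groups compared the adjusted p was 7.9e-07 in the edgeR test.

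*Otc* (ENSMUSG00000031173.13, chrX:10252305-10321024, plus strand), the second mitochondrial enzyme of the cycle, was at 419 and 519.6 CPM after saline and at 197 and 215.5 CPM after LPS. The LGK974 libraries were at 231 and 140 CPM, below both control libraries and on either side of the endotoxemic ones. *Otc* fell by 1.18 in the endotoxemic group (SE 0.26, 95% interval −1.77 to −0.60, adjusted p = 0.00554 in the edgeR test). The mean was 44% of that of the control group. Its log2 fold change lay between −1.33 and −1.02 under its 19 alternatives. *Otc* missed the threshold in 2 of them, those without control library 2 and without endotoxemic library 1. With only the 2 groups compared the adjusted p was 7.75e-05 in the edgeR test. The gene is X-linked, and *Xist* differed by a log2 fold change of −0.04 between the endotoxemic and control groups (adjusted p = 0.924 in the edgeR test), so this comparison does not carry the sex-linked difference described above.

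*Ass1* (ENSMUSG00000076441.9, chr2:31470207-31520672, plus strand) encodes argininosuccinate synthetase, which joins citrulline and aspartate. The row with this symbol stood between *Sec61g* and *Eldr*, 2 genes of chromosome 11, where the reference places *Egfr*, so its neighbours in the table are not its neighbours in the genome. On that row the counts were 46 and 57 after saline, 1333 and 1132 after LPS, and 2501 and 915 after LGK974 and LPS. As deposited, the row rose by 5.06 on the log2 scale in the endotoxemic group (SE 0.51, adjusted p = 7.02e-05 in the edgeR test), the only rise among the members. It differed by −0.09 between the LGK974 and endotoxemic groups (adjusted p = 0.929 in the edgeR test). Which gene's reads the endotoxemic and LGK974 counts of this row hold cannot be read from the table.

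At the genomic place of *Ass1*, between *Ncs1* and *Fubp3* on chromosome 2, stood 2 rows with other symbols, *Mapk8* and *Gm5424*. *Gm5424* (ENSMUSG00000046687.6, chr10:62071123-62072362, plus strand) is a processed pseudogene of *Ass1*, and 0 rows stood at its own place between *Col13a1* and *2010107G23Rik*. The coding sequence of transcript Ass1-201 is 1239 bases long, and 1233 of the 1239 aligned bases (99.5%) were identical in Gm5424-201, with a longest identical run of 398 bases. Both transcripts were taken from GENCODE on GRCm38.

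The *Gm5424* row held 9497 and 11612 counts after saline, 3340 and 2710 after LPS, and 7073 and 3680 after LGK974 and LPS. In the control libraries the *Ass1* row amounted to 0.484% and 0.491% of it. With normalization the *Gm5424* row was at 881.5 and 759 CPM, 364 and 289 CPM, and 534 and 249 CPM in the same order, and the control libraries lay above all others. As deposited, this row was lower by 1.33 in the endotoxemic group (SE 0.33, 95% interval −2.07 to −0.59, adjusted p = 0.0102 in the edgeR test), at 39.8% of the control mean. Like the *Mapk8* row it stood out of genomic order. Its control counts and its LPS and LGK974 counts may therefore come from different genes. How reads were divided between the gene and its copy is not given in the sources used here, so the levels of *Ass1* and *Gm5424* are uncertain on every row.

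The *Mapk8* row, which stood between *Ncs1* and *Gm5424*, held 120 and 302 counts after saline, 11 and 11 after LPS, and 16 and 6 after LGK974 and LPS. When the endotoxemic and LGK974 counts of *Ass1* were taken from this row and its control counts from its own, its log2 fold change in the endotoxemic group was −1.74 (adjusted p = 0.0485 in the edgeR test). With the counts of *Gm5424* added it was −1.33 (adjusted p = 0.0101 in the edgeR test). Both alternatives were chosen after seeing the data. The direction for *Ass1* therefore turned from higher to lower with the row used.

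**Figure D2:**
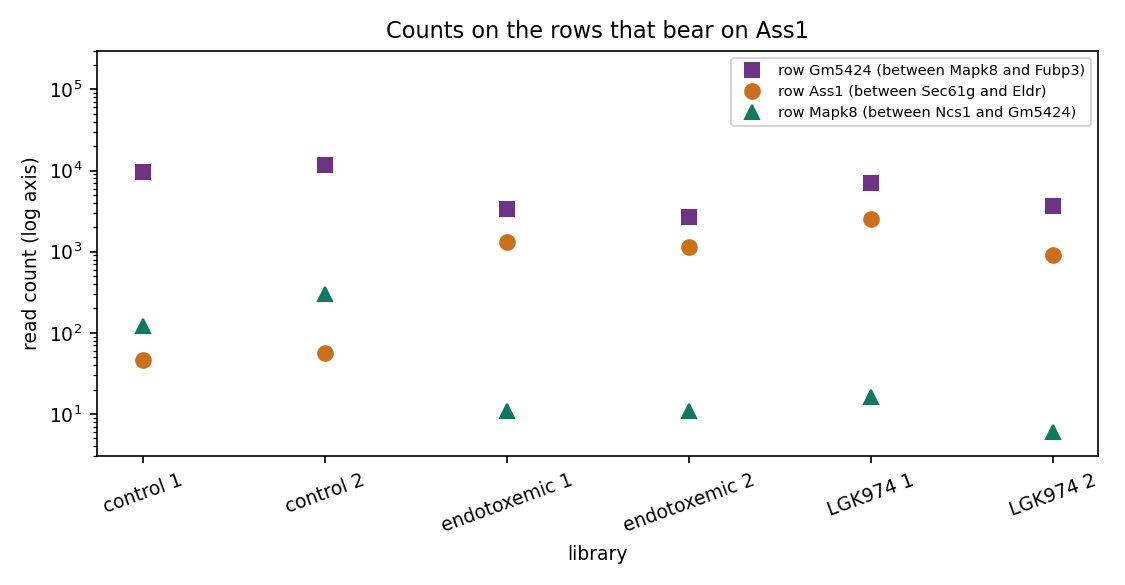
Read counts (log axis) on the rows named *Ass1*, *Gm5424* and *Mapk8* in the 6 distinct libraries. The *Ass1* row is at 46 and 57 counts in the control libraries and at 915 to 2501 in the others, whereas the rows at its genomic place, *Gm5424* and *Mapk8*, are highest in the control libraries. Each of these rows stood out of genomic order, so its control counts and its other counts may come from different genes.

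*Asl* (ENSMUSG00000025533.15, chr5:130011258-130029247, minus strand), which splits argininosuccinate into arginine and fumarate, was at 174 and 192 CPM after saline and at 70.5 and 77.2 CPM after LPS. LGK974 libraries 1 and 2 were at 113.5 and 52.8 CPM, again on either side of the endotoxemic libraries. *Asl* fell by 1.31 in the endotoxemic group (SE 0.32, 95% interval −2.03 to −0.59, adjusted p = 0.00939 in the edgeR test). Its log2 fold change lay between −1.38 and −1.19 under its 19 alternatives. *Asl* missed the threshold in 3 of them, those without control library 2, endotoxemic library 1 or endotoxemic library 2. With only the 2 groups compared the adjusted p was 2.55e-05 in the edgeR test.

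*Glud1* (ENSMUSG00000021794.16, chr14:34310727-34345265, plus strand) encodes glutamate dehydrogenase, which releases ammonia from glutamate inside the mitochondrion. Control libraries 1 and 2 were at 1196 and 997 CPM, endotoxemic libraries at 221 and 186 CPM, and LGK974 libraries at 283 and 280.2 CPM. The 3 groups did not overlap. *Glud1* fell by 2.43 in the endotoxemic group (SE 0.21, 95% interval −2.90 to −1.97, adjusted p = 2.68e-05 in the edgeR test), to 18.5% of the control mean.

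*Gls2* (ENSMUSG00000044005.13, chr10:128194457-128210004, plus strand) encodes the liver-type glutaminase, which supplies ammonia to CPS1 from glutamine. It was at 493 and 514 CPM after saline, at 86.0 and 84.0 CPM after LPS, and at 94.9 and 52.6 CPM after LGK974 and LPS. Both control libraries lay above all others, and the LGK974 libraries lay on either side of the endotoxemic ones. Its fall of 2.57 in the endotoxemic group (SE 0.28, 95% interval −3.20 to −1.94, adjusted p = 0.000105 in the edgeR test) left 16.9% of the control mean, the lowest share among the members. Among the 5 members that fell, *Gls2* and *Glud1* stayed below an adjusted p of 0.05 under all 19 alternatives run for them.

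The second comparison asked which of these genes differ between the LGK974 and endotoxemic groups. None of the 7 members passed the edgeR test at an adjusted p below 0.05, so 0 were called, and DESeq2 called 0 as well. At an unadjusted p below 0.05 the edgeR test gave 1 of the 7 members, *Glud1*, and 2911 of the 12701 tested genes. After adjustment 5.62% of all tested genes passed (2.8% higher and 2.82% lower).

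In both LGK974 libraries *Glud1* was above its level in either endotoxemic library, at a log2 fold change of 0.47 (SE 0.20, 95% interval 0.03 to 0.91), and it did not pass after adjustment (adjusted p = 0.194 in the edgeR test). *Cps1*, *Otc*, *Asl* and *Gls2* each had 1 LGK974 library above and 1 below the endotoxemic libraries. The log2 fold change was −0.30 for *Cps1* (95% interval −1.30 to 0.70, adjusted p = 0.725 in the edgeR test) and −0.16 for *Otc* (95% interval −0.73 to 0.42, adjusted p = 0.756). For *Asl* it was 0.17 (95% interval −0.54 to 0.88, adjusted p = 0.787 in the edgeR test), and for *Gls2* −0.20 (95% interval −0.80 to 0.39, adjusted p = 0.688). Each of these intervals holds both falls and rises, so neither a difference nor its absence was shown. The *Gm5424* row differed by 0.26 (95% interval −0.47 to 0.99, adjusted p = 0.674 in the edgeR test).

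**Figure D3:**
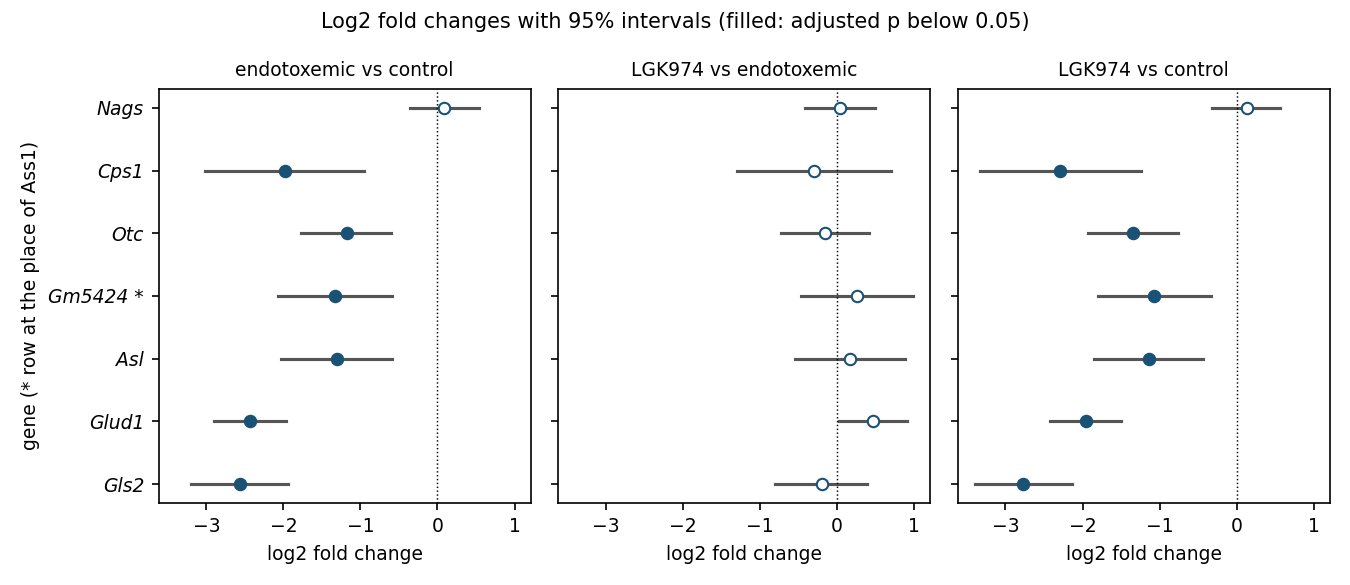
Log2 fold changes of 6 members and of the *Gm5424* row in the 3 comparisons of the edgeR test, with 95% intervals and filled points where the adjusted p is below 0.05. In the middle panel no point is filled, and in the outer panels *Gls2*, *Glud1* and *Cps1* lie farthest to the left. The outer panels may set counts of different genes against each other for the *Gm5424* row, which stood out of genomic order.

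Several members differed more between the 2 LGK974 libraries than between the libraries of the other groups. *Cps1* was 3.38 times as high in LGK974 library 1 as in library 2, a log2 difference of −1.76 that was larger in size than that of 94.4% of all tested genes in this group. *Asl* differed by −1.10, *Gls2* by −0.85, *Otc* by −0.72 and the *Gm5424* row by −1.10. *Glud1* differed by −0.02 and *Nags* by −0.20. In the control and endotoxemic groups the same difference lay between −0.34 and 0.31 for every one of these rows. Over all tested genes the median absolute difference was 0.43 between the LGK974 libraries, 0.26 between the control libraries and 0.28 between the endotoxemic libraries.

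The comparison with the endotoxemic group therefore turned on which LGK974 library was kept. Without LGK974 library 1, the log2 fold change was −1.43 for *Cps1*, −0.69 for *Gls2* and −1.10 for the *Ass1* row as deposited, whose gene is uncertain. Without LGK974 library 2, *Cps1* was at 0.32, *Gls2* at 0.16 and *Otc* at 0.16. In these fits a single LGK974 library was assumed to vary like the other groups. Rn45s, a ribosomal RNA precursor, took 4.8% of the counts of LGK974 library 1 and 9.38% of those of library 2, against 7.17% to 8.26% in the other libraries. With Rn45s left out, *Cps1* was at −0.30 between the LGK974 and endotoxemic groups (adjusted p = 0.725 in the edgeR test). In that fit 0 members were among the 727 genes called. The part of Rn45s in the difference between the 2 LGK974 libraries was not tested.

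**Figure D4:**
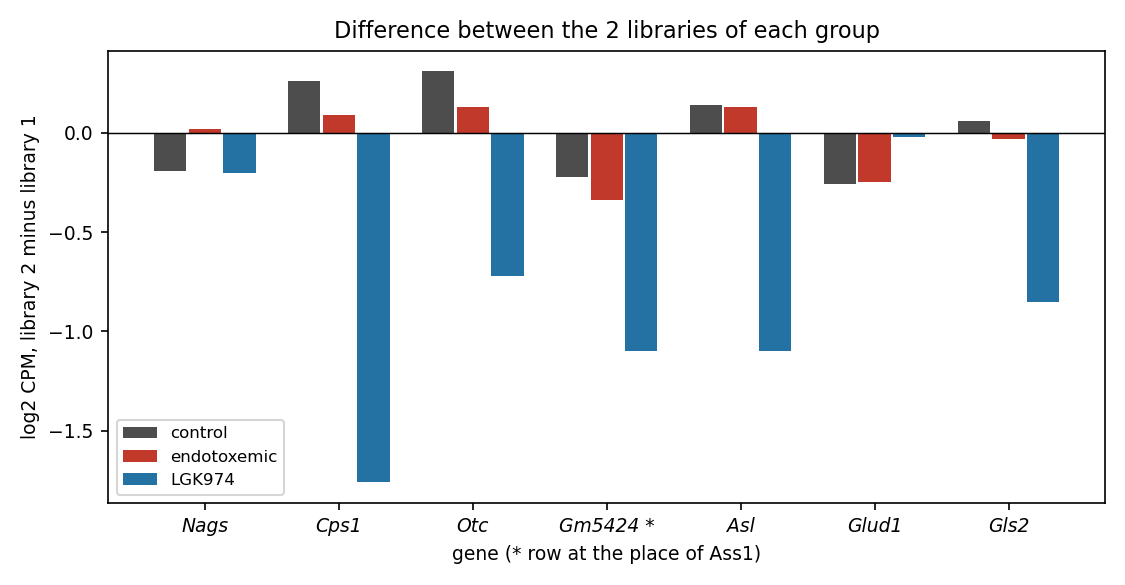
Log2 CPM of library 2 minus library 1 in each group, for 6 members and the *Gm5424* row. The bars of the LGK974 group reach −1.76 for *Cps1* and −1.10 for *Asl* and *Gm5424*, and all bars of the control and endotoxemic groups lie between −0.34 and 0.31.

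The third comparison set the LGK974 group against the control group. It shares its groups with the other comparisons and is not a separate measurement. *Cps1*, *Otc*, *Asl*, *Glud1* and *Gls2* were lower, the *Ass1* row as deposited was higher by 4.97 (adjusted p = 0.000106 in the edgeR test), and *Nags* did not pass. Among all tested genes 34.1% passed (17.7% lower and 16.4% higher). *Gls2* was lower by a log2 fold change of −2.77 (SE 0.28, adjusted p = 9.87e-05 in the edgeR test) and *Cps1* by −2.29 (SE 0.46, adjusted p = 0.00494). *Glud1* was at −1.96 (SE 0.20, adjusted p = 0.000107 in the edgeR test) and *Otc* at −1.34 (SE 0.26, adjusted p = 0.00395). *Asl* was at −1.14 (SE 0.32, adjusted p = 0.0216 in the edgeR test), which rose to 0.0798 without control library 1 and to 0.11 without control library 2. Without LGK974 library 1 the log2 fold changes of *Cps1* and *Asl* were −3.41 and −1.79, and without LGK974 library 2 they were −1.66 and −0.69, with every one of these past the threshold of the edgeR test. *Nags* was at 0.13, with a 95% interval of −0.32 to 0.57 (adjusted p = 0.657 in the edgeR test).

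Ordered by mean CPM, the 6 members in genomic order ran *Cps1*, *Glud1*, *Gls2*, *Otc*, *Asl* and *Nags* in the control group. *Cps1* at 1139 ± 145 CPM and *Glud1* at 1096 ± 140.4 CPM (SD, n = 2) did not differ beyond their spread there, nor did *Gls2* at 503.5 ± 15.5 CPM and *Otc* at 469 ± 71.3 CPM. The endotoxemic order was *Cps1*, *Otc*, *Glud1*, *Gls2*, *Asl* and *Nags*, with *Otc* at 206 ± 12.9 CPM and *Glud1* at 203 ± 24.9 CPM within their spread. In the LGK974 group *Glud1* stood first at 282 ± 2.22 CPM, followed by *Cps1* at 233.5 ± 179.5 CPM and *Otc* at 185 ± 64.3 CPM. Neither *Glud1* and *Cps1* nor *Cps1* and *Otc* differed beyond their spread there, whereas both *Otc* libraries lay below both *Glud1* libraries. The 7 rows with the members' symbols took 0.327% and 0.352% of all counts after saline, 0.104% and 0.104% after LPS, and 0.128% and 0.0739% after LGK974 and LPS. Without the *Ass1* row these shares were 0.327% and 0.351%, 0.0892% and 0.0917%, and 0.11% and 0.0676%.

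Start-site sequences are shown for *Otc* and *Glud1*, which fell, and for *Nags*, which did not pass, so that their base composition can be read beside the values. They are the 250 bases before each RefSeq start on GRCm38.p6, 5′ to 3′ on the plus strand, at chrX:10252055-10252304, chr14:34310477-34310726 and chr11:102145263-102145512. Capitals mark matches on either strand to the core bound by C/EBP factors (TTNCNNAA) or to a half-site bound by HNF4 (CAAAG), both families of hepatocyte transcription factors. None of the marked matches overlap.
Otc: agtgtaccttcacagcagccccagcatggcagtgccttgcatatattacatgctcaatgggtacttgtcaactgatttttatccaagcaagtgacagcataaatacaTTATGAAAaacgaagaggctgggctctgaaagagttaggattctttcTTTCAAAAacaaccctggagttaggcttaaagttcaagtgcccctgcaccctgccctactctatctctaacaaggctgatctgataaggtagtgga
Glud1: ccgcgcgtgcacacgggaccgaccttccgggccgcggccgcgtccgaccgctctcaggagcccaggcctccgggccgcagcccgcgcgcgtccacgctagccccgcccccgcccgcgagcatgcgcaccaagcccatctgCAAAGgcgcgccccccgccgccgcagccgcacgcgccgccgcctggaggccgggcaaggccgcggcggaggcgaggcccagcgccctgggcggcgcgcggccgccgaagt
Nags: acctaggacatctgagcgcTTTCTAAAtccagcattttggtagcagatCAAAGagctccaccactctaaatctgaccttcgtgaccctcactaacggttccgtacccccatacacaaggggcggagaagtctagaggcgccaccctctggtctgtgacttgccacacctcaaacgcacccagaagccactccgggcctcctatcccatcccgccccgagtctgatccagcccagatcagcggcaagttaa

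The 2 falling genes differ widely in composition. The *Otc* window is 43.6% G and C with 1 CG dinucleotide, and the *Glud1* window is 82% G and C with 46. *Nags* is at 55.6% with 11 CG dinucleotides, near the median of 52.4% over 32851 promoters. TTNCNNAA matched 2 times in *Otc*, 1 time in *Nags* and 0 times in *Glud1*, and 36.9% of all promoters hold it. CAAAG matched 1 time each in *Nags* and *Glud1* and 0 times in *Otc*, and 48.6% of all promoters hold it. The *Ass1* window, at chr2:31470020-31470269, is 75.6% G and C with 23 CG dinucleotides and held neither motif. It ends at the RefSeq start, which lies inside the gene as given above, so its last bases overlap that gene. The letters TGACG and TATAAA, and GGG followed after 4 bases by TCC, searched on both strands too, were in none of these 4 windows. A match of letters is a description of the sequence, and the promoters of *Cps1*, *Asl* and *Gls2* were not analysed here.

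Carriers that move intermediates of the cycle and amino acids across membranes were described from a list of 20 genes, of which 17 were tested. In the endotoxemic group 11 of the 17 fell and 3 rose relative to the control group, with a median log2 fold change of −1.51, beside 23% lower and 20.4% higher among all tested genes. *Slc25a13*, the mitochondrial aspartate and glutamate carrier that supplies aspartate to ASS1, had 2289 and 3531 counts after saline, 170 and 125 after LPS, and 429 and 623 after LGK974 and LPS. It fell by 3.80 in the endotoxemic group (adjusted p = 6.97e-06 in the edgeR test) and rose by 1.23 between the endotoxemic and LGK974 groups (adjusted p = 0.0217), the only carrier to pass there. *Slc25a15*, the ornithine and citrulline exchanger, fell by 0.98 (adjusted p = 0.00406 in the edgeR test) and differed by −0.50 between the LGK974 and endotoxemic groups (adjusted p = 0.175). *Aqp9*, a channel for glycerol and urea, fell by 5.10, and *Slc25a10*, the dicarboxylate carrier, fell by 3.48 (adjusted p = 2.61e-05 and 1.83e-05 in the edgeR test). The rises were those of *Slc7a1*, a cationic amino acid transporter, at 3.60, *Slc1a5* at 2.62 and *Slc3a2* at 1.05 (adjusted p = 0.000382, 0.0127 and 0.0164 in the edgeR test). *Slc1a5* had 2 and 17 counts after saline and *Slc7a1* had 10 and 20, so their fold changes rest on few control counts. The row of *Slc7a2*, the arginine transporter of hepatocytes, was out of genomic order, and it fell by 9.96 as deposited and by 2.72 with the counts given to the gene at the place of each row (adjusted p = 0.000328 in the edgeR test).

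Enzymes of glutamine, glutamate, aspartate and alanine metabolism numbered 9 tested genes of 10, of which 6 fell and 1 rose in the endotoxemic group, with a median log2 fold change of −1.55, beside the same 23% and 20.4%. *Oat*, which joins ornithine to glutamate metabolism, fell by 2.60, and *Gpt*, alanine aminotransferase, fell by 2.78 (adjusted p = 3.98e-05 and 0.00017 in the edgeR test). *Aspg*, which hydrolyses asparagine, fell by 2.68 (adjusted p = 0.00104 in the edgeR test). *Asns*, asparagine synthetase, had 0 and 8 counts after saline and 119 and 135 after LPS, and was the gene of this list that rose (adjusted p = 0.000136 in the edgeR test). *Glul*, the glutamine synthetase of hepatocytes around the central vein, had 14483 and 17693 counts after saline, 6478 and 5023 after LPS, and 13865 and 5043 after LGK974 and LPS, and did not pass (log2 fold change −1.01, adjusted p = 0.085 in the edgeR test). *Got1*, cytosolic aspartate aminotransferase, fell by 1.21 in the endotoxemic group (adjusted p = 0.00457 in the edgeR test) and by 1.13 between the endotoxemic and LGK974 groups (adjusted p = 0.0374), where no other gene of this list passed as deposited. *Oat* was at −0.92 there, with an adjusted p of 0.0503 as deposited and 0.0486 with reassigned symbols in the edgeR test.

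Arginine, ornithine, nitric oxide and polyamine genes moved both ways, with 7 of 18 tested genes higher and 6 lower in the endotoxemic group and a median of −0.21, beside 20.4% higher and 23% lower among all tested genes. *Odc1*, which turns ornithine into putrescine, rose by 2.09 (adjusted p = 7.66e-05 in the edgeR test). *Aldh18a1*, which starts proline and ornithine synthesis from glutamate, had 0 and 2 counts after saline and 27 and 32 after LPS, and rose (adjusted p = 0.0025 in the edgeR test), with too few control counts for a fold. *Prodh*, which degrades proline, fell by 4.07, and *Ddah1*, which clears methylated arginines, fell by 3.28 (adjusted p = 1.78e-05 and 0.000129 in the edgeR test). *Gatm*, which uses arginine for creatine synthesis, fell by 2.60 (adjusted p = 0.00487 in the edgeR test). *Nos2*, the inducible nitric oxide synthase, had 1 and 0 counts after saline, and its row stood out of genomic order. After LPS it had 8 and 11 counts as deposited and 100 and 88 with reassigned symbols, a rise in both cases (adjusted p = 0.0161 and 0.00129 in the edgeR test), again without a usable fold.

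Enzymes that release ammonia from amino acids or purines were 13 tested genes of 14, and 5 fell and 1 rose in the endotoxemic group, with a median of −0.07. These 6 of 13 lie close to the 43.4% of all tested genes that passed. *Cth*, *Hal* and *Gldc*, which degrade cystathionine, histidine and glycine, had log2 fold changes of −4.00, −3.48 and −2.81 (adjusted p = 3.39e-05, 1.48e-05 and 5.45e-05 in the edgeR test), and *Sdsl*, a serine dehydratase-like gene, rose by 3.02 (adjusted p = 1.84e-05). *Car5a*, the mitochondrial carbonic anhydrase that provides bicarbonate to CPS1, had 358 and 642 counts after saline, 5 and 12 after LPS, and 9 and 15 after LGK974 and LPS. Its log2 fold change was −5.35 in the endotoxemic group and −0.10 between the LGK974 and endotoxemic groups (adjusted p = 1.65e-05 and 0.932 in the edgeR test). *Sirt3*, *Sirt4* and *Sirt5*, mitochondrial deacylases that modify enzymes of this pathway, had log2 fold changes of −3.01, −2.62 and −1.48 (adjusted p = 0.00014, 0.012 and 0.0242 in the edgeR test). *Car5b* was at −1.49 and did not pass (adjusted p = 0.0782 in the edgeR test). Of these 5 genes for bicarbonate supply and enzyme modification 4 fell and 0 rose, beside 23% lower and 20.4% higher among all tested genes.

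**Figure D5:**
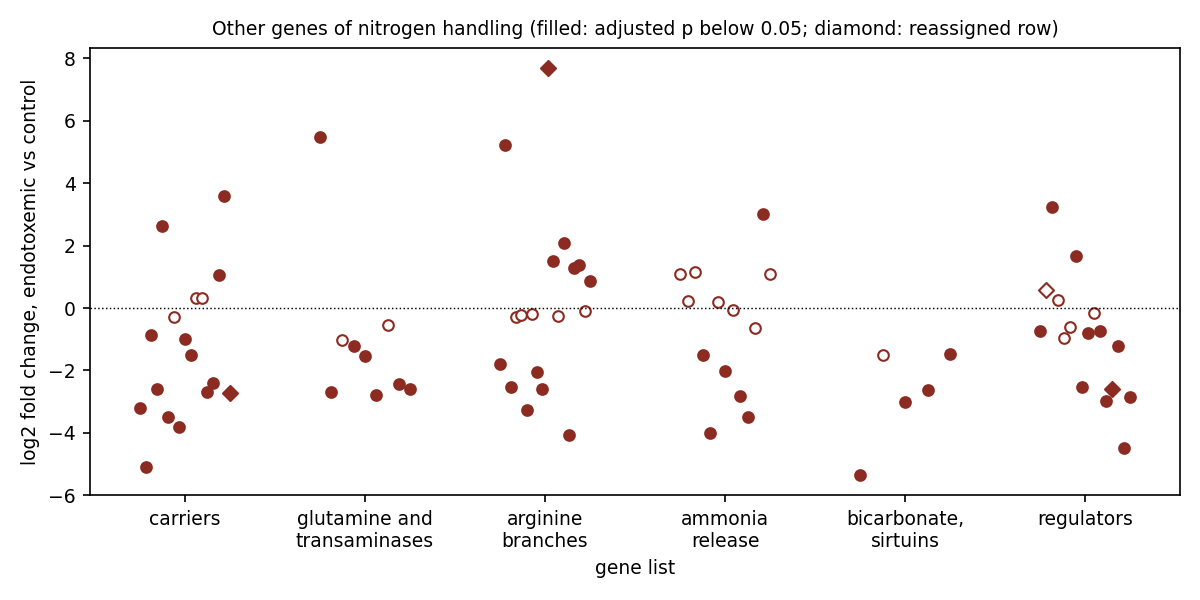
Log2 fold changes of the endotoxemic against the control group for the tested genes of 6 lists around the urea cycle, with filled points where the adjusted p is below 0.05 and diamonds where a row was out of genomic order and was reassigned. The carrier list and the glutamine and transaminase list hold 11 of 17 and 6 of 9 genes that fell, and the arginine list holds 7 genes that rose and 6 that fell. The fitted values of *Nos2* and *Aldh18a1*, the highest points of that list, rest on 0 to 2 counts in each control library.

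Transcription factors and receptors known to act on urea cycle genes were tested for all 16 genes listed, of which 8 fell and 3 rose in the endotoxemic group as deposited, and 9 fell and 2 rose with reassigned symbols, beside 23% lower and 20.4% higher among all tested genes. The largest falls were those of *Ppara*, *Klf15*, a glucocorticoid-responsive factor for amino acid catabolism, and *Ppargc1a*, with log2 fold changes of −4.50, −2.98 and −2.84 (adjusted p = 2.63e-05, 2.1e-05 and 0.000153 in the edgeR test). *Gcgr*, the glucagon receptor, fell by 2.54 (adjusted p = 4.67e-05 in the edgeR test), and *Cebpa* fell by 0.72 (adjusted p = 0.0167). *Cebpd* rose by 3.24 and *Foxa3* by 1.68 (adjusted p = 1.17e-05 and 0.000459 in the edgeR test). The row of *Cebpb* was out of genomic order, and its rise of 2.34 as deposited became 0.59 with reassigned symbols, where it did not pass (adjusted p = 0.0999 in the edgeR test). *Nr1h4*, the bile acid receptor FXR, was on such a row too, and its log2 fold change was −0.49 as deposited and −2.60 with reassigned symbols (adjusted p = 0.163 and 6.31e-05 in the edgeR test). *Hnf4a* differed by −0.16 and did not pass (adjusted p = 0.539 in the edgeR test).

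Of the 78 tested genes of these 6 lists, 6 passed between the LGK974 and endotoxemic groups as deposited (7.69%), beside 5.62% of all tested genes, and 8 passed with reassigned symbols. As deposited, beside *Slc25a13* and *Got1*, they were *Oaz2*, an inhibitor of ODC1, at 0.95 (adjusted p = 0.0458 in the edgeR test), *Gcsh*, a part of the glycine cleavage system, at 1.08 (adjusted p = 0.0198), *Ppara* at 2.74 (adjusted p = 0.00514) and *Cebpa* at −0.83 (adjusted p = 0.0446). With reassigned symbols *Oat* and *Nr1h4* passed too. The log2 fold change of *Nr1h4* there was −0.28 as deposited and 2.12 with reassigned symbols (adjusted p = 0.577 and 0.00311 in the edgeR test). The 5 genes for bicarbonate supply and enzyme modification had adjusted p-values of 0.156 to 0.932 there in the edgeR test. Against the control group, the LGK974 group was lower for 11 of 17 carriers, 6 of 9 glutamine and transaminase genes, 6 of 18 arginine genes, 4 of 13 ammonia-releasing genes, 3 of 5 bicarbonate and modifier genes and 8 of 16 regulators, beside 17.7% of all tested genes. It was higher for 2 carriers, 1 glutamine and transaminase gene, 8 arginine genes, 2 ammonia-releasing genes and 3 regulators, beside 16.4% of all tested genes.

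Markers of hepatocyte zones and of other cells moved in the same comparison, in which 23% of all tested genes fell and 20.4% rose. Of 7 periportal markers other than the members, 6 fell in the endotoxemic group with a median of −2.43, and of 7 pericentral markers 6 fell with a median of −2.60, beside a median of −1.31 over the 7 members as deposited and −1.65 over the 6 without the *Ass1* row. Of these, 2 of the periportal and 4 of the pericentral markers also stand in the lists above. Of the 6 hepatocyte markers tested 4 fell (*Ahsg* on a row out of order) and 1 rose, with *Alb*, albumin, falling by 1.17 and *Fgb*, the acute-phase fibrinogen chain, rising by 2.08 (adjusted p = 0.0138 and 0.000145 in the edgeR test). The 3 neutrophil markers in genomic order (*Retnlg*, *Mmp8* and *Csf3r*) summed to 1.76 to 2.35 CPM in the control libraries, 56.5 to 70.8 CPM in the endotoxemic libraries and 33.1 to 34.5 CPM in the LGK974 libraries. The 5 Kupffer cell markers in genomic order summed to 95.5 to 100.6 CPM, 117 to 138 CPM and 85.5 to 119 CPM in the same order. Single Kupffer cell markers moved both ways in the endotoxemic group, where 4 of 7 fell and 1 rose. *Clec4f* was at a log2 fold change of −0.89 and *Vsig4* at −2.76 (adjusted p = 0.0124 and 0.000352 in the edgeR test). *Marco* rose by 3.70, from a mean of 6.57 to 85.5 CPM (adjusted p = 1.89e-05 in the edgeR test). The 5 sinusoidal endothelium markers summed to 218.5 to 229 CPM, 396 to 399.7 CPM and 428.5 to 548 CPM, where 2 fell (*Clec4g* and *Kdr*) and *Lyve1* alone rose, by 3.03 in the endotoxemic group (adjusted p = 1.81e-05 in the edgeR test). The 4 bile duct markers summed to 13.4 to 15.3 CPM, 74.3 to 80.5 CPM and 29.1 to 72.3 CPM, where *Krt19* fell, to 0 and 1 counts after LPS, and *Sox9* alone rose, by 3.12 (adjusted p = 0.0114 and 0.000539 in the edgeR test). The 5 stellate cell markers summed to 440.2 to 460.8 CPM, 563 to 603.8 CPM and 480.6 to 572.7 CPM, with 3 lower and 1 higher in the endotoxemic group. The part of these cell types in the members' values was not tested.

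The genes whose log2 CPM followed each member most closely over the 6 distinct libraries were listed as a description, without a test, since libraries of 3 groups with 2 each share their group differences. *Cps1* was followed by *Fabp1*, the liver fatty acid-binding protein (Pearson r = 0.9974), and *Otc* by *Ndufa9*, a subunit of respiratory complex I (r = 0.9993). *Asl* was followed by *Ttpa*, the vitamin E transfer protein (r = 0.9933), and *Gls2* by *C77080* (r = 0.9995) and the bile acid ligase gene *Slc27a5* (r = 0.9989). *Glud1* was followed by *Mafg* (r = 0.9994) and *Nags* by *Wfs1* (r = 0.9937).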

How the data were processed

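Liver RNA of 3 groups was analysed from 8 files, 1 per library. Libraries were made with the Lexogen QuantSeq kit per the labels, and the authors deposited whole-number read counts per gene symbol, without normalization. The submitters' processing notes name Bowtie2, edgeR and the mm10 build, with no version or role. The counter, the annotation and the handling of strand and of reads with several matches are not given in the sources used here. Counts on near-identical copies can be divided either way by such choices.

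Identical libraries were counted once. The edgeR package (4.0.16, R 4.3.3) filtered genes with filterByExpr, scaled libraries by TMM and fitted a single quasi-likelihood model with 3 groups to the 6 distinct libraries. F tests were adjusted by Benjamini-Hochberg over 12701 genes at 0.05, and the common biological coefficient of variation was 0.239. SEs and 95% intervals were derived from these tests, and CPM are TMM-normalized. CPM on the log2 scale used a prior count of 0.5. A signal of 3 counts, the smallest taken as seen, equalled 0.197 to 0.328 CPM, which covers counting error only. The model was tested on simulated data.

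Row order was compared with RefSeq positions on GRCm38. Where symbols were reassigned, 434 matched rows gave their LPS and LGK974 counts to the gene at their place, and control counts stayed with their symbol. Sequences came from RefSeq and GENCODE through Biopython 1.88. No symbol was corrected otherwise.

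The members and the gene lists were chosen with earlier results of these data known. Some listed genes, 1 member among them, are not reported here and are left out of the counts and medians of the lists. Named genes were all members, the 3 largest rises and falls past the threshold in each comparison and each of the 6 lists around the urea cycle, and *Glul*, *Nos2*, *Oat*, *Slc25a15* and *Car5a* whatever their result. The marker lists did not follow this rule. *Gm5424*, *Mapk8*, *Xist* and *Ddx3y* are named for the rows they stand on or the labels they bear on. *Hnf4a*, *Gcgr*, *Car5b*, *Sirt5*, *Nr1h4*, *Clec4f*, *Vsig4*, *Cd5l*, *Csf1r*, *Marco*, *Clec4g*, *Kdr*, *Lyve1*, *Krt19* and *Sox9* were added after their values were seen, and *Cebpa* and *Got1* are given in a comparison beyond the rule. For the LGK974 against control comparison the lists are given by counts alone. Alternatives were DESeq2 1.42.0, other scalings and filters, a replicate block, all libraries, 2 groups alone, rows out of order left out or reassigned, and each library left out. The alternatives that took *Ass1* counts from the *Mapk8* row, alone or with *Gm5424*, were added after seeing the data.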

Additional observations from a re-analysis of the deposited data

How the results depend on the processing

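With 2 distinct libraries a group, counts of calls depended on single libraries and on counting the identical libraries once. Members called between the endotoxemic and control groups numbered 6, and 3 to 6 with each library left out in turn. Between the LGK974 and endotoxemic groups 0 members were called in edgeR (1 at an unadjusted p below 0.05) and 0 in DESeq2, 0 to 3 with each library left out and 1 with endotoxemic libraries 3 and 4 as separate samples. Over all genes that comparison gave 714 calls, 49 to 2242 with each library left out, 1118 in DESeq2, 1705 with no filter on low counts, 3259 with the identical libraries as separate samples and 269 with only the 2 groups compared. With each library left out, all genes called ranged from 3432 to 6719 between the endotoxemic and control groups and from 2372 to 5369 between the LGK974 and control groups, against 5513 and 4328 with the 6 distinct libraries, and were 7637 and 5759 with the identical libraries as separate samples. Signs turned in the LGK974 against endotoxemic comparison when a library was left out, with log2 fold changes of −1.43 to 0.32 for *Cps1*, −0.56 to 0.16 for *Otc*, −1.10 to 0.50 for *Ass1*, −0.48 to 0.62 for *Asl*, −0.06 to 0.14 for *Nags* and −0.69 to 0.16 for *Gls2*. In the endotoxemic against control comparison *Nags* ranged from −0.0047 to 0.18. *Glud1* passed in the LGK974 against endotoxemic comparison with the identical libraries as separate samples (0.48, adjusted p = 0.0254 in the edgeR test). *Ass1* depended on the row. With endotoxemic and LGK974 counts from the *Mapk8* row and control counts from the *Ass1* row, its log2 fold change was −1.74 in the endotoxemic and −2.31 in the LGK974 group against the control group, and −0.56 between the LGK974 and endotoxemic groups (adjusted p = 0.66 in the edgeR test). With *Gm5424* added these were −1.33, −1.07 and 0.26 (adjusted p = 0.677 for the last in the edgeR test). Leaving out rows out of genomic order gave no value for *Ass1*, nor did reassigned symbols, since no single row was matched to its place. The sources do not say that replicate numbers pair the libraries. The deviations of same-numbered libraries had correlations of 0.102, 0.056 and −0.004, which cannot show with 2 libraries a group whether they were paired. With the replicate block 6, 0 and 6 members and 5485, 685 and 4307 of all genes were called in the 3 comparisons, with no call of a member changed. The causes of these shifts were not tested.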
